A study of Arabidopsis thaliana with 9 samples.

Results

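The group A bZIP factors described here are 8 Arabidopsis transcription factor genes of abscisic acid signalling: ABF1 (AT1G49720), ABF2 (AT1G45249), ABF3 (AT4G34000), ABF4 (AT3G19290), EEL (AT2G41070), AREB3 (AT3G56850), BZIP67 (AT3G44460) and GBF4 (AT1G03970). They were taken by gene identifier from a table of 32548 genes, and all 8 passed the filter on low values that left 23207 genes for testing. RNA came from 11-day-old seedlings grown on MS plates, with 3 libraries per genotype. The first mutant, al24567, is homozygous for mutations in 5 ALFIN-like genes (al2-/- al4-/- al5-/- al6-/- al7-/-), which encode plant homeodomain proteins that bind methylated histone H3. The second, ring1a1b, is homozygous for mutations in the Polycomb RING finger genes RING1A and RING1B (ring1a-/- ring1b-/-). Col-0 is the wild type, and the title of the series names histone H3K4 trimethylation and H2A ubiquitination as the marks under study.

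Abscisic acid is the plant hormone of drought, cold and salt stress and of seed maturation. It binds receptors of the PYR/PYL family, which then block clade A protein phosphatases, and SnRK2 kinases freed from those phosphatases phosphorylate the group A bZIP proteins. The phosphorylated factors bind the abscisic acid response element, whose core is ACGTG, in front of stress and seed genes. ABF2 (also called AREB1), ABF3 and ABF4 (AREB2) act mainly in vegetative tissue under water stress and salt, and ABF1 is known from the cold response. EEL, AREB3 and BZIP67 are known mainly from seeds, and GBF4 binds the related G-box together with other G-box factors.

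Read totals recovered from the deposited table lay between 18258434 and 22435656 per library. Values below are deposited read counts that had been adjusted to a common library size, called adjusted reads here. Differences are in log2(adjusted reads + 1) with the SE of a limma fit over all 9 libraries, folds are on the same scale, and a gene was called where its p, adjusted by Benjamini-Hochberg over all tested genes, was below 0.05. The labels do not say whether the replicates were separate cultures, so the tests speak only for the spread among these libraries. In al24567 the transcripts of AL2, AL4, AL6 and AL7 fell and AL5 was not called (-0.06), and in ring1a1b RING1A fell by 6.22 and RING1B by 0.79. All 6 leaf markers and all 7 root markers had reads in every library. In such bulk samples, fewer cells of a type and less RNA per cell cannot be told apart.

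The promoters of ABF1 and ABF4, the factors that fell in al24567, and of ABF3, the most abundant member, each held the ACGTG core within 250 bases before the annotated gene start. The sequences are from the RefSeq TAIR10.1 genome, read 5′ to 3′ on the strand of the gene, which is the plus strand for all 3, and capitals mark ACGTG on the strand shown or CACGT, the same core on the other strand. The windows are chr1:18399753-18400002 for ABF1, chr3:6686792-6687041 for ABF4 and chr4:16295084-16295333 for ABF3. The first base of the core lay 114 and 83 bases before the start of ABF1, 72 bases before that of ABF4 and 111 bases before that of ABF3.
ABF1 promoter: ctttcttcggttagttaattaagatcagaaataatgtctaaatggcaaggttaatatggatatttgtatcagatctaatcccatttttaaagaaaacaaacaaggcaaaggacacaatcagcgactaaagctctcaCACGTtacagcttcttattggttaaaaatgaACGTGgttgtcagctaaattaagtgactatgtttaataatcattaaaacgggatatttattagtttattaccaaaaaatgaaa
ABF4 promoter: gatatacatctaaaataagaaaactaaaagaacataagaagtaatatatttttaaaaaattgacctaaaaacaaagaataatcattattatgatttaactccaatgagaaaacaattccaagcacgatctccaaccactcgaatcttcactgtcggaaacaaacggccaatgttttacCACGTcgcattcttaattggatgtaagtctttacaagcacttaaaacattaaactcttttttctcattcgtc
ABF3 promoter: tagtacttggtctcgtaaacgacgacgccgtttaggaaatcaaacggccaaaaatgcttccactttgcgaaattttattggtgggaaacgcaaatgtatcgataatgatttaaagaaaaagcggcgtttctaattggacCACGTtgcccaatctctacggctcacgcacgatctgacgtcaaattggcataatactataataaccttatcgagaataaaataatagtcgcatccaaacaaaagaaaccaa
Searched on both strands, ACGTG was found in 4 of the 8 member windows (ABF1, ABF3, ABF4 and BZIP67) and in 22.9% of 27443 gene promoters of the same length. The windows of EEL, AREB3 and GBF4 overlapped a neighbouring gene, whereas those of ABF2 and of the 4 members with ACGTG held no other gene. CACGTG, the G-box that contains ACGTG, was in 0 of the 8 windows and in 6.49% of all promoters. CATGCA, the RY element of seed genes, was in the BZIP67 window and in 8.43% of all promoters, and AAACCCTA, the telobox, was in 0 windows and in 4.49% of all promoters. Such a match describes letters and not a bound site, and other parts of the genes were not searched.

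In al24567 seedlings ABF1 and ABF4 fell, and the other 6 factors were not called in either direction. By limma, 0 members were called higher (0 at an unadjusted p below 0.05, 0 by limma-voom) and 2 were called lower. Of all tested genes 36.3% were called in this comparison, 17.9% higher and 18.4% lower, so that a share of 25% of the members lies below the background in both directions together. The median difference over the members was -0.09, against -0.02 over all tested genes.

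ABF1 (chromosome 1, 18400003 to 18402628, plus strand) had 110, 118 and 51.1 adjusted reads in al24567, against 148, 162 and 153 in Col-0. Every al24567 library was below every Col-0 library, and replicate 3 was far below the other 2 of its genotype. The difference was -0.81 ± 0.23 (adjusted p = 0.00873, limma, 3 libraries per genotype). Without al24567 replicate 3 it was -0.43, still called at an adjusted p of 0.0337. ABF1 shares 123 of its 1720 exon bases with AT1G49730 on the opposite strand, and the sources used here do not say whether reads were counted by strand. AT1G49730 had 500 ± 75.8 adjusted reads in al24567, against 920 ± 52.9 in Col-0 (-0.89 ± 0.10, adjusted p = 8.72e-07, limma), and the part of its reads in the ABF1 value was not tested.

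ABF4 (chromosome 3, 6687042 to 6690123, plus strand) had 708, 657 and 632 adjusted reads in al24567, against 815, 872 and 815 in Col-0. The genotypes did not overlap, and the libraries of each lay close together. The difference was small, -0.33 ± 0.08 (adjusted p = 0.00354, limma), and its call held under each of the 16 alternative settings run, with adjusted p from 0.002 to 0.0234. A non-coding RNA gene, AT3G03815, overlaps 754 exon bases of ABF4 on the opposite strand but had at most 11.7 adjusted reads in any library.

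**Figure D1:**
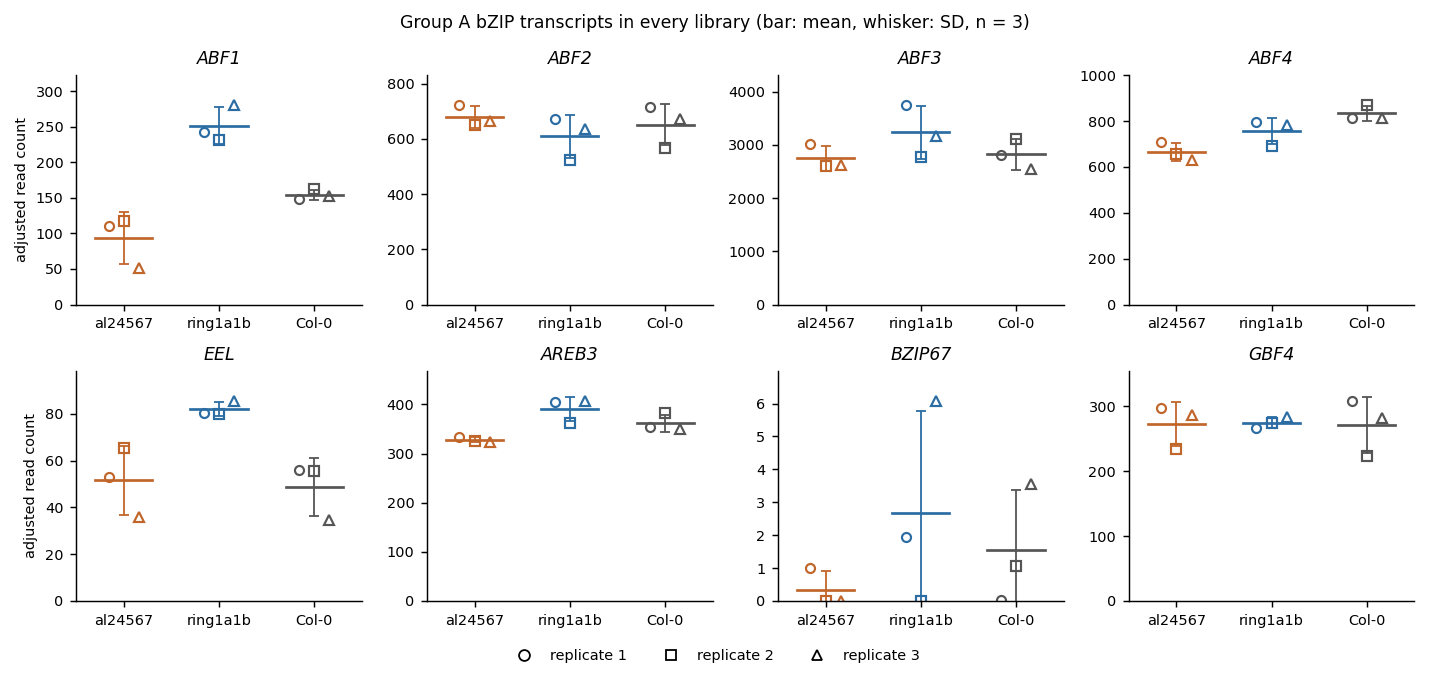
Adjusted reads of each of the 8 factors in every library of al24567, ring1a1b and Col-0 (linear axes from 0; points are libraries, bars means and whiskers SD, n = 3; whiskers below 0 are cut at the axis). ABF1 lies lowest in al24567 (51.1 to 118) and highest in ring1a1b (231 to 281), ABF4 is lower in al24567 than in Col-0, and EEL is higher in ring1a1b (80 to 85.5) than in both other genotypes.

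In ring1a1b seedlings the same test called ABF1 and EEL higher and no member lower. The 2 members called higher are a share of 25%, against 10.0% of all tested genes called higher, 7.67% called lower and 17.7% called in all. By limma 0 members were lower, also at an unadjusted p below 0.05 and by limma-voom. The median difference over the members was 0.15, against -0.02 over all tested genes. With library totals made equal, 69.8% of the calls over all genes were higher, against 56.7% with the deposited scaling, and ABF1 and EEL remained the 2 members called.

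ABF1 had 242, 231 and 281 adjusted reads in ring1a1b, against 148, 162 and 153 in Col-0. Each ring1a1b library was above each Col-0 library, and the lowest of them was well clear of the highest Col-0 value. ABF1 rose by 0.70 ± 0.23, or 1.62-fold (adjusted p = 0.0396, limma). The call was close to the threshold: it was lost when any 1 of the 6 libraries compared was left out, with a difference of 0.62 to 0.76 and an adjusted p of 0.0525 to 0.134, and also with a pseudocount of 0.1 (0.0565) and without the filter (0.0564). Under the other settings run the call held. There the adjusted p was 0.000444 with only the 2 genotypes compared (limma) and 0.00549 by limma-voom. Without al24567 replicate 3, the lowest ABF1 library, it was 0.00104 (limma). The overlapping AT1G49730 had 785 ± 30.5 adjusted reads in ring1a1b and 920 ± 52.9 in Col-0 (-0.23 ± 0.10, adjusted p = 0.117, limma), which is the opposite sign to ABF1.

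EEL (chromosome 2, 17129753 to 17132386, plus strand), which in Arabidopsis seeds competes with ABI5 at the promoter of the late embryogenesis gene EM1, had 80.5, 80 and 85.5 adjusted reads in ring1a1b. Its values in Col-0 were 56, 55.7 and 34.4. The 3 ring1a1b libraries lay within a narrow band above all of Col-0, where replicate 3 was lowest. EEL rose by 0.77 ± 0.26, or 1.71-fold (adjusted p = 0.0465, limma). Its call too was lost without any 1 of the 6 libraries (adjusted p from 0.055 to 0.219), with a pseudocount of 0.1 (0.0561) and without the filter (0.0643). The log2 difference was lowest without Col-0 replicate 3, at 0.55 (adjusted p = 0.219, limma). Under the other settings run the EEL call held, with an adjusted p of 0.0218 with only the 2 genotypes compared (limma) and 0.0234 by limma-voom. In al24567, EEL had 53.1, 65.5 and 36.1 adjusted reads, overlapped Col-0 and was not called (0.07 ± 0.26, 95% interval -0.47 to 0.62, adjusted p = 0.858). Its upstream neighbour AT2G41060 shares 23 exon bases with it on the same strand and was not called in ring1a1b minus Col-0 (0.05 ± 0.10, adjusted p = 0.806, limma), but it was called lower in al24567, with 422 ± 45.9 adjusted reads against 507 ± 39.1 in Col-0 (-0.27 ± 0.10, adjusted p = 0.0402, limma).

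Set directly against each other, the mutants differed most in ABF1 among the members called. In ring1a1b minus al24567, 3 members were called higher (ABF1, EEL and AREB3) and 0 lower by limma (0 at an unadjusted p below 0.05 and 0 by limma-voom). That is 37.5% of the members, against 39.0% of all tested genes called, 20% higher and 18.9% lower. The median difference was 0.24 over the members and 0.02 over all tested genes. With library totals made equal, the median of all genes moved by 0.1 and 65% of calls were higher in place of 51.5%, and 5 members were called, with ABF3 (0.33, adjusted p = 0.00788) and ABF4 (0.28, adjusted p = 0.0112) added.

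ABF1 averaged 252 ± 26 adjusted reads in ring1a1b and 93.3 ± 36.7 in al24567 (SD, n = 3 each). The lowest ring1a1b library held 231 and the highest al24567 library 118, so the genotypes were far apart. The difference was 1.51 ± 0.23, or 2.85-fold (adjusted p = 3.19e-05, limma), and it was called under every alternative run, with adjusted p from 6.16e-06 to 0.000291. The overlapping AT1G49730 was also higher in ring1a1b, with 785 ± 30.5 adjusted reads against 500 ± 75.8 in al24567 (0.66 ± 0.10, adjusted p = 2.22e-05, limma), and the part of its reads in the ABF1 difference was not tested. EEL was 82 ± 3.05 in ring1a1b and 51.6 ± 14.8 in al24567, again without overlap, a difference of 0.70 ± 0.26 (adjusted p = 0.0401, limma). Without al24567 replicate 3 it fell short of the threshold at 0.47 (adjusted p = 0.182), and without al24567 replicate 1 or any ring1a1b replicate it was 0.67 to 0.74 and also not called. AT2G41060, the same-strand neighbour of EEL, was higher in ring1a1b as well, with 524 ± 35.8 adjusted reads against 422 ± 45.9 in al24567 (0.31 ± 0.10, adjusted p = 0.016, limma), and its part in the EEL value was not tested.

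AREB3 (chromosome 3, 21046234 to 21048614, minus strand), a factor expressed in embryos, had 404, 363 and 407 adjusted reads in ring1a1b, against 334, 326 and 324 in al24567. The al24567 libraries were nearly equal and all below ring1a1b. The difference was 0.25 ± 0.09 (adjusted p = 0.0413, limma), and the call was lost without any 1 of 7 of the 9 libraries (adjusted p from 0.0521 to 0.137). Col-0 lay between the mutants at 353, 382 and 349: al24567 was below it in every library, at -0.14 ± 0.09 (adjusted p = 0.271), and ring1a1b overlapped it, at 0.11 ± 0.09 (adjusted p = 0.48). AREB3 shares 113 exon bases with AT3G56840 on the opposite strand, which was -0.44 ± 0.12 in ring1a1b minus al24567 (adjusted p = 0.00528, limma), opposite in sign to AREB3.

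**Figure D2:**
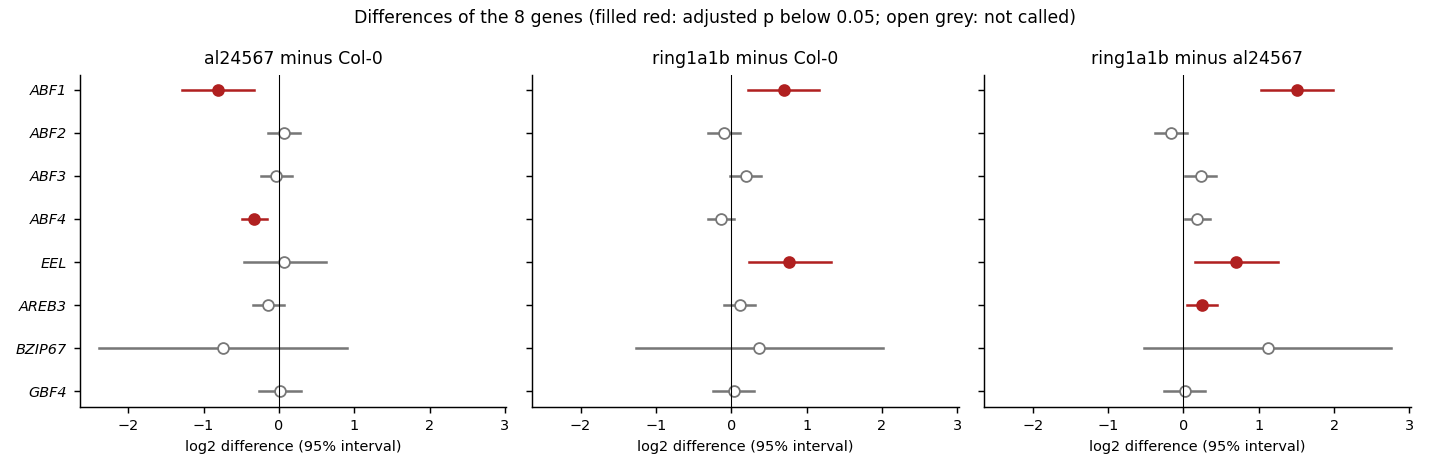
Log2 difference of each factor between each mutant and Col-0 and between the mutants (ring1a1b minus al24567), with its 95% interval from the limma fit (filled red, adjusted p below 0.05). ABF1 is called in all 3 comparisons, at -0.81, 0.70 and 1.51, while ABF2, ABF3, BZIP67 and GBF4 are called in none.

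ABF3 (chromosome 4, 16295334 to 16298285, plus strand), with ABF2 and ABF4 a main factor of the drought response, had 3014, 2602 and 2625 adjusted reads in al24567, 3760, 2780 and 3167 in ring1a1b and 2809, 3117 and 2543 in Col-0. All 3 genotypes overlapped, and replicate 1 of ring1a1b was the highest library. It was not called in al24567 minus Col-0 (-0.04 ± 0.10, 95% interval -0.24 to 0.17) or in ring1a1b minus Col-0 (0.19 ± 0.10, 95% interval -0.01 to 0.40, adjusted p = 0.206). Without ring1a1b replicate 2, ABF3 was called higher in ring1a1b (0.29, adjusted p = 0.0486). In ring1a1b minus al24567 it stood at 0.23 ± 0.10 (adjusted p = 0.0721, limma) and was called without al24567 replicate 1 (0.30, adjusted p = 0.03) or ring1a1b replicate 2 (0.33, adjusted p = 0.0114). ABF3 shares 24 exon bases with DJ1C on the opposite strand.

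ABF4 had 798, 693 and 781 adjusted reads in ring1a1b, all below the Col-0 libraries, but the difference of -0.14 ± 0.08 was not called (adjusted p = 0.265, limma). Against al24567 the ring1a1b value was 0.18 ± 0.08 (adjusted p = 0.0779), and it was called without al24567 replicate 1 (0.23, adjusted p = 0.042) or ring1a1b replicate 2 (0.25, adjusted p = 0.0358).

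ABF2 (chromosome 1, 17165125 to 17167924, minus strand) had 724, 650 and 664 adjusted reads in al24567, 671, 522 and 634 in ring1a1b and 714, 568 and 672 in Col-0. Replicate 2 was the lowest library in each genotype, and the genotypes overlapped. Its differences were 0.06 ± 0.10 in al24567 minus Col-0 (95% interval -0.15 to 0.28) and -0.10 ± 0.10 in ring1a1b minus Col-0 (95% interval -0.31 to 0.12). In ring1a1b minus al24567 ABF2 was -0.16 ± 0.10 (95% interval -0.38 to 0.05). GBF4 (chromosome 1, 1018058 to 1019247, plus strand) also overlapped in all 3 genotypes, with 297, 234 and 287 adjusted reads in al24567, 266, 274 and 283 in ring1a1b and 308, 223 and 282 in Col-0. Its differences from Col-0 were 0.01 ± 0.13 in al24567 (95% interval -0.26 to 0.29) and 0.03 ± 0.13 in ring1a1b (95% interval -0.24 to 0.30), and the mutants differed by 0.02 ± 0.13.

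BZIP67 (chromosome 3, 16079432 to 16081906, minus strand; DPBF2 in the reference), which in Arabidopsis seeds activates omega-3 fatty acid synthesis and the dormancy gene DOG1, was at the limit of detection. It had 1, 0 and 0 reads in al24567, 2, 0 and 6 reads in ring1a1b and 0, 1 and 4 reads in Col-0. A library with 0 reads allows a level of up to 0.153 to 0.164 CPM (0.134 to 0.164 CPM over all libraries), from 3 counts over its total, and such limits cover counting error only. The differences from Col-0 were -0.75 ± 0.78 in al24567 (95% interval -2.39 to 0.90) and 0.37 ± 0.78 in ring1a1b (95% interval -1.27 to 2.01). Neither was called, and changes within these intervals could not be told from none at this depth. Between the mutants, 8 reads in ring1a1b and 1 in al24567 gave a ratio of 7.42 with a counting interval of 0.995 to 329.

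Divided by annotated exon length, so that genes can be compared, ABF3 was the most abundant of the 8 in every genotype. Its level averaged 1124 ± 94.7 adjusted reads per kilobase in al24567, 1324 ± 202 in ring1a1b and 1155 ± 118 in Col-0. That was 52.6% ± 0.696, 52.9% ± 2.79 and 50.7% ± 3.07 of the summed level of the 8 genes in al24567, ring1a1b and Col-0 (SD, n = 3 each). The sums themselves were 2137 ± 154, 2493 ± 262 and 2273 ± 106 adjusted reads per kilobase in the same order.

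Below ABF3 the order in Col-0 ran ABF4 (320), ABF2 (252), GBF4 (236), AREB3 (187), ABF1 (89.7), EEL (32.2) and BZIP67 (0.873), in mean adjusted reads per kilobase. ABF2 overlapped GBF4 there, and GBF4 overlapped AREB3, so the order within those pairs is not set by these libraries. In al24567 ABF2 (263), ABF4 (255) and GBF4 (237) overlapped as neighbours, and ABF1 (54.2) overlapped EEL (34.1). In ring1a1b GBF4 (239), ABF2 (236) and AREB3 (202) overlapped as neighbours, and ABF1 stood at 146, above EEL (54.2) in every library and below AREB3 (202) in every library. ABF1 made up 2.53% ± 0.974 of the summed level in al24567, 5.9% ± 0.683 in ring1a1b and 3.95% ± 0.218 in Col-0.

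**Figure D3:**
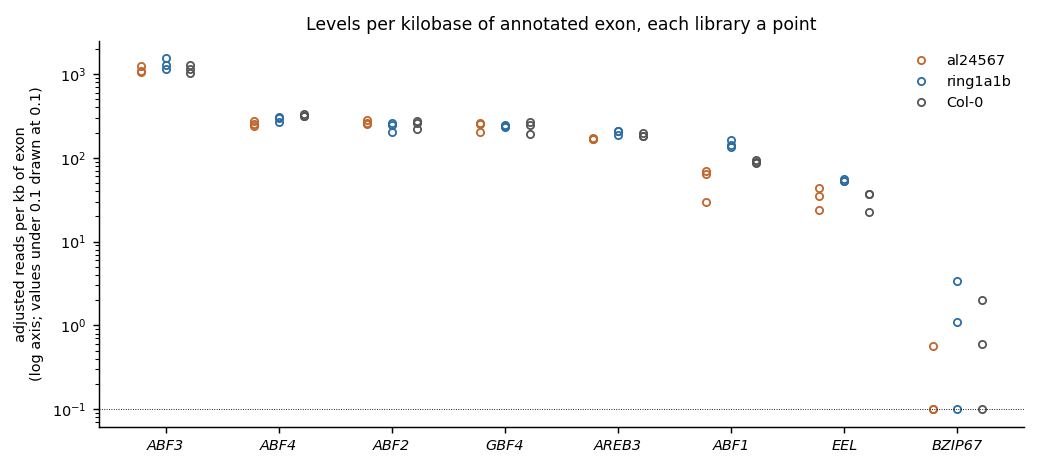
Adjusted reads per kilobase of annotated exon for each factor (log axis; each point is a library of al24567, ring1a1b or Col-0; values under 0.1 are drawn at 0.1). ABF3 lies between 1040 and 1539 in every library, ABF4, ABF2, GBF4 and AREB3 form a middle group, and BZIP67 is below all others.

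Upstream of the factors, receptor genes were called in both directions in each mutant. Of the 14 PYR/PYL receptor genes, 5 rose and 1 fell in al24567 (median 0.38, against -0.02 over all tested genes), and 2 rose and 1 fell in ring1a1b (median 0.41). Beside this and the later lists, 17.9% of all tested genes were called higher and 18.4% lower in al24567. In ring1a1b the shares were 10.0% higher and 7.67% lower. The receptor median in ring1a1b takes in PYL3, PYL10, PYL11, PYL12 and PYL13, which had at most 23 reads in any genotype. Their differences there were 0.33 to 2.75 and depend on the pseudocount, against -0.42 to 0.56 for the other receptor genes. PYL4 had 1046 ± 73.7 adjusted reads in al24567 and 468 ± 27 in Col-0 (1.16 ± 0.09), PYL5 had 622 ± 43.4 and 258 ± 38.8 (1.28 ± 0.12), and PYL8 rose by 0.53 ± 0.07. In ring1a1b PYL5 rose by 0.56 ± 0.12 and PYL1 fell by 0.42 ± 0.12. PYL13 had 18 reads in ring1a1b and 0 in Col-0; set against 3 counts over the Col-0 libraries together, it was at least 6.03-fold higher, and later bounds are set in the same way. The call of PYL1 was lost without Col-0 replicate 1 or 2 or ring1a1b replicate 2 or 3 (adjusted p between 0.0545 and 0.0872), and without ring1a1b replicate 2 only 1 receptor gene was called in ring1a1b.

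The clade A phosphatases hold the kinases inactive until the hormone is bound, and the AFP proteins are corepressors that bind the bZIP factors. Some of their genes were called by limma, in the higher direction in both mutants, and 1 phosphatase gene was called lower under some settings. Of 9 phosphatase genes 2 rose in al24567 (median 0.06) and 4 in ring1a1b (median 0.47), with 0 lower in both. Over all tested genes 17.9% were called higher in al24567 and 10.0% in ring1a1b. ABI1 rose by 0.36 ± 0.08 in al24567 and by 0.47 ± 0.08 in ring1a1b, HAB1 by 0.22 ± 0.07 and 0.31 ± 0.07, and HAI2 by 1.03 ± 0.19 in ring1a1b. Of the 4 AFP genes and KEG, a ubiquitin ligase gene, 2 rose in al24567 (median 0.14) and 3 in ring1a1b (median 0.43), with 0 lower. AFP1 rose by 0.35 ± 0.13 in al24567 and by 0.52 ± 0.13 in ring1a1b, AFP4 by 0.78 ± 0.20 and 0.61 ± 0.20, and AFP3 by 0.39 ± 0.11 in ring1a1b. For each 0, limma at an unadjusted p below 0.05 and limma-voom also gave 0, except for 1 phosphatase gene lower in al24567 at an unadjusted p. This was AHG1, chosen here after its values were seen, which stood at -1.28 ± 0.52 (adjusted p = 0.0635, limma) and was called lower in al24567 without Col-0 replicate 3 (-1.64, adjusted p = 0.0376) or al24567 replicate 1 (-1.70, adjusted p = 0.0267). In al24567, HAB1 lost its call with equal library totals and without Col-0 replicate 1 or 3 or al24567 replicate 1 (adjusted p between 0.0607 and 0.104), and AFP1 without Col-0 or al24567 replicate 1 or 3 (0.0682 to 0.13). In ring1a1b, AFP4 lost its call without any Col-0 replicate or ring1a1b replicate 2 or 3 (0.062 to 0.138), and AFP3 without Col-0 replicate 3 or ring1a1b replicate 1 or 3 (0.0543 to 0.0812). The AFP count was then as low as 1 in both mutants, and the phosphatase count in al24567 was 1 where totals were made equal or Col-0 replicate 1 was left out.

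Among 6 kinases of the ABF proteins, 2 fell and 0 rose in al24567 (median -0.04), and 1 fell and 0 rose in ring1a1b (median 0.04). Over all tested genes 18.4% were called lower in al24567 and 7.67% in ring1a1b. CPK32, a calcium-dependent kinase that phosphorylates ABF4, had 1191 ± 69.7 adjusted reads in al24567, against 1882 ± 97.4 in Col-0 (-0.66 ± 0.08), and was -0.44 ± 0.08 in ring1a1b. SNRK2.3, one of the core kinases of the pathway, fell in al24567 to 415 ± 10.5, against 612 ± 8.15 in Col-0 (-0.56 ± 0.09). Of the 5 other group A bZIP genes 4 were tested; 2 fell and 0 rose in al24567 (median -0.64), and 1 rose and 0 fell in ring1a1b (median 0.19). For each 0 in these counts, an unadjusted p below 0.05 and limma-voom gave 0 as well. The bZIP count of 2 in al24567 was 1 without Col-0 replicate 2 or al24567 replicate 1.

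ABI5, the main abscisic acid bZIP factor of germination and the competitor of EEL, had 6.02 ± 2.76 adjusted reads in al24567 and 16.1 ± 6.02 in Col-0, and fell by 1.31 ± 0.39 (adjusted p = 0.0127, limma). It stood at -1.04 and was not called (adjusted p = 0.0761, limma) once Col-0 replicate 2 was left out, and at -0.95 (0.0645) without al24567 replicate 1. In ring1a1b it had 53.9 ± 4.9 adjusted reads and rose by 1.74 ± 0.39 (adjusted p = 0.00384, limma). Like ABF1, it was called lower in al24567 and higher in ring1a1b, and both comparisons share the Col-0 libraries. AT5G44080 had 324 ± 21.4 adjusted reads in al24567 and 425 ± 18.3 in Col-0 (-0.39 ± 0.10, adjusted p = 0.00644, limma).

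Among listed abscisic acid target genes, most were called higher in ring1a1b, while in al24567 they were called in both directions. Control of these genes by the factors was not tested, and the list was chosen with earlier results of these data known. Of 19 targets 15 rose and 0 fell in ring1a1b (median 0.85; 0 fell at an unadjusted p and by limma-voom), and 5 rose and 5 fell in al24567 (median 0.13), where limma-voom called 3 higher and 5 lower. The desiccation protein gene RD29B had 2586 ± 625 adjusted reads in ring1a1b and 126 ± 20.2 in Col-0 (4.34 ± 0.31), and TSPO, a stress-induced membrane protein gene, had 291 ± 73.8 and 21 ± 6.1 (3.73 ± 0.25). EM1 had 1486 reads in ring1a1b and 0 in Col-0, at least 498-fold higher. In al24567 TSPO rose by 2.25 ± 0.25, while the cold-induced chloroplast protein gene COR15A fell by 1.17 ± 0.13 and the alcohol dehydrogenase gene ADH1 by 1.06 ± 0.16. COR15A has a related neighbour, COR15B, and an exchange of reads between them was not measured. Over the libraries left out in turn, 12 to 16 targets were called in ring1a1b.

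**Figure D4:**
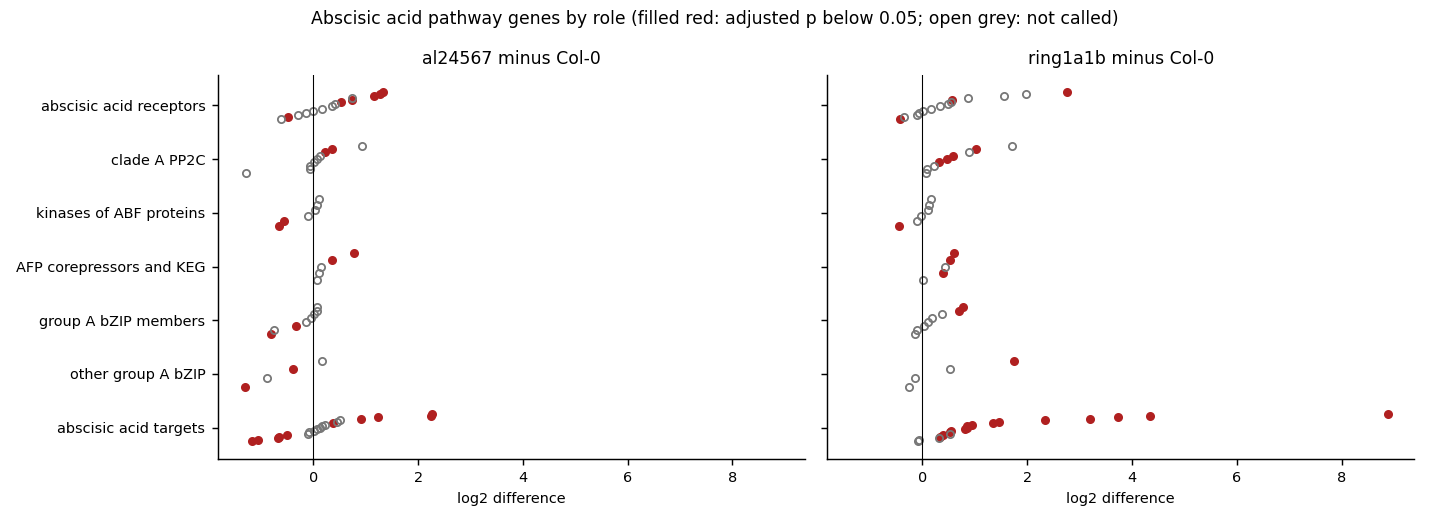
Log2 difference from Col-0 of every tested gene of the abscisic acid pathway in al24567 (left) and ring1a1b (right), in rows by role (filled red, adjusted p below 0.05). The 8 factors stay between -1 and 1 in both mutants, while 15 of the 19 listed abscisic acid targets are called higher in ring1a1b. Fitted values of genes with 0 reads in Col-0, such as EM1, depend on the pseudocount.

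Because EEL, AREB3 and BZIP67 are known mainly from seeds, their seed partners and the seed storage markers are given beside them. AREB3 nonetheless had 324 to 407 adjusted reads in every library of these seedlings. Of 11 seed partner and target genes 7 were tested; 2 rose and 0 fell in ring1a1b (1 fell at an unadjusted p, 0 by limma-voom), and 1 fell and 0 rose in al24567 (0 at an unadjusted p and by limma-voom). The gene that fell at an unadjusted p was BZIP53, chosen after its values were seen, at -0.23 ± 0.08 in ring1a1b (adjusted p = 0.0645, limma). It was called lower with only the 2 genotypes compared and without al24567 replicate 2 or 3 or ring1a1b replicate 3 (adjusted p between 0.0238 and 0.0462), which made the count 3. ABI3, a master regulator of seed maturation, had 109 reads in ring1a1b and 2 in Col-0, a ratio of 54.8 with a counting interval of 14.8 to 458. DOG1 had 3.85 ± 2.49 adjusted reads in al24567, 195 ± 19.4 in ring1a1b and 31.8 ± 10.4 in Col-0, and both differences were called, at -2.87 ± 0.39 and 2.63 ± 0.39. FAD3, the fatty acid desaturase gene that BZIP67 activates in seeds, was not called in al24567 (-0.12 ± 0.07) or in ring1a1b (-0.09 ± 0.07). LEC1, LEC2 and L1L, seed regulators, had at most 5 reads in any genotype.

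The 9 seed storage markers summed to 8.09 to 44.1 adjusted reads in al24567, 619 to 3210 in ring1a1b and 4.19 to 6.93 in Col-0. Of the 6 tested, 4 rose in ring1a1b (3 by limma-voom) and 1 in al24567, with 0 lower in both (also at an unadjusted p and by limma-voom). CRC (at least 891-fold), OLEO2 (at least 180-fold) and OLEO1 (at least 109-fold) had 0 reads in Col-0, as had SESA1, SESA2 and SESA3. In ring1a1b limma-voom did not call CRC (adjusted p = 0.167). The marker called in al24567 was OLEO2, with 20 reads against 0 in Col-0, at least 7.23-fold higher (adjusted p = 5.75e-05, limma). EEL and the seed storage sum were both higher in ring1a1b than in Col-0. Within ring1a1b the sum ran from 3210 in replicate 1 to 619 in replicate 3, while EEL was nearly level, with 83, 84 and 84 reads in replicates 1 to 3. Any link of EEL to the sum was not tested. ABF1 was highest in replicate 3, at 281. BZIP67 had 6 reads in that library.

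The 7 root markers summed to 2962 to 3390 adjusted reads in al24567, 1878 to 2455 in ring1a1b and 1810 to 2030 in Col-0. In al24567 6 of the 7 rose and 0 fell (0 also at an unadjusted p and by limma-voom), among them PRP3 (1.09 ± 0.14) and EXPA18 (0.89 ± 0.14) of root hairs and SCR (0.41 ± 0.08) of the endodermis, while ABF1 and ABF4 fell. The part of that shift in their values was not tested. In ring1a1b 0 root markers were called by limma (1 higher at an unadjusted p, 0 by limma-voom), and PRP3 was called higher without ring1a1b replicate 1 (0.53, adjusted p = 0.00689). Leaf marker sums of 875242 to 1118736 in al24567, 982855 to 1109156 in ring1a1b and 1026851 to 1158639 in Col-0 overlapped. For leaf markers limma called 0 in both mutants (1 lower in ring1a1b at an unadjusted p, and 1 lower in each mutant by limma-voom). The 4 pollen markers summed to at most 11.5 adjusted reads in any library. Of the 3 tested, HAP2 was called lower in al24567, with 4 reads against 18 in Col-0 (-1.68 ± 0.56, adjusted p = 0.025, limma). Its call was lost with only the 2 genotypes compared and without Col-0 replicate 2 or 3 or al24567 replicate 2 (adjusted p between 0.0507 and 0.121). In ring1a1b 0 pollen markers were called by limma.

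**Figure D5:**
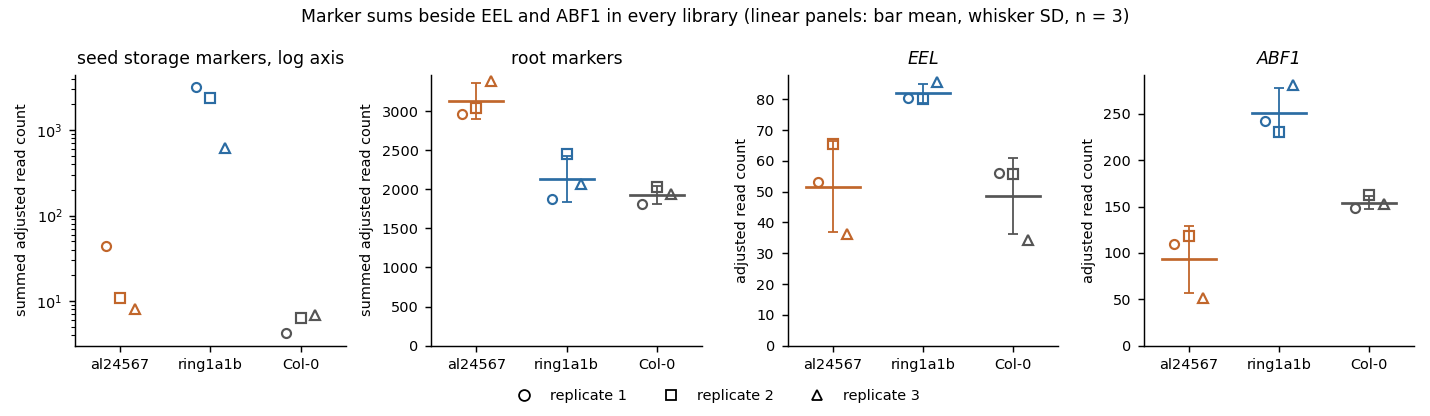
Summed adjusted reads of the seed storage markers (log axis) and of the root markers beside the adjusted reads of EEL and ABF1 in every library of al24567, ring1a1b and Col-0 (bars are means and whiskers SD in the linear panels, n = 3). Seed storage sums are highest in ring1a1b (619 to 3210) and root sums in al24567 (2962 to 3390), and EEL is nearly level over the ring1a1b libraries (80 to 85.5).

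For 7 of the factors, the gene with the most similar pattern over the 9 libraries was sought among 18748 tested genes, by the Pearson r of log2(adjusted reads + 1), as a description without a test. For ABF1 this was AT5G40570 (r = 0.988), with 7.01, 6.32 and 0.112 adjusted reads in al24567, 82.5, 70.4 and 94.6 in ring1a1b and 20.9, 28.4 and 32 in Col-0. It was lowest in al24567 replicate 3, the library in which ABF1 was also lowest. For ABF4 it was AT5G24060 (r = 0.980), with 275, 257 and 251 adjusted reads in al24567, 350, 270 and 362 in ring1a1b and 368, 411 and 386 in Col-0. EEL was most like APO3 (r = 0.960), ABF2 most like AT1G76010 (r = 0.961), ABF3 most like AT3G56080 (r = 0.961), AREB3 most like AT3G57720 (r = 0.961) and GBF4 most like AT4G23930 (r = 0.922). The libraries fall into 3 genotypes and each r is the highest of many, and BZIP67 was too low to be measured in this way.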

How the data were processed

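Seedlings of 3 genotypes were profiled by RNA-seq from total RNA, with 3 libraries each; per the submitters' processing notes, bcl2fastq, HISAT2, TAIR10 and edgeR were used, and counting tool, annotation and strandedness are not given in the sources used here. The deposited signal values are read counts adjusted by the authors to a common library size, as read from the values: inverting that adjustment, with a dispersion of 0.00826, returned whole reads for 100.0000% of 292932 values, at a tolerance of 0.01 or a relative 1e-05. They are not per gene length.

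From the deposited values, limma 3.58.1 (R 4.3.3) was fitted with a mean-variance trend to log2(value + 1) in 1 model of 9 libraries, for the 23207 genes whose value reached 1 in at least 3 libraries, and the 3 genotype contrasts were adjusted by Benjamini-Hochberg over all tested genes. The fit was tested on simulated data. Alternative settings were no filter, a minimum of 20, a pseudocount of 0.1, a replicate block, only the genotypes compared, equal library totals and each library left out; limma-voom on recovered reads was added after seeing the data. Planned count tests by other tools were not run, as the deposited unit is adjusted and not raw, and limma-voom was the only test run on the recovered reads. Deviations of same-number libraries from their genotype means correlated only weakly, at -0.017 to 0.038, though 7 of 9 libraries correlated best with their own number.

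Members and lists (103 genes) were chosen with earlier results of these data known. Named were all members and, per list and mutant, up to 3 called genes with the smallest p. Exon lengths, positions and promoters are from RefSeq TAIR10.1, to which all 32548 identifiers matched; tables and figures were made in Python 3.11.15 (pandas 2.3.3, numpy 2.4.6, matplotlib 3.10.9).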

Additional observations from a re-analysis of the deposited data

How the results depend on the processing

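Over 16 alternative settings, 328 of 381 member values kept direction and side of the threshold, 31 lost a call, 8 gained one and 14 changed sign, all of the last without a call; the causes were not tested. In ring1a1b minus Col-0 the count of members called was 2, but 0 with log2(value + 0.1), 0 without a filter and 0 to 2 without single libraries. In ring1a1b minus al24567 it was 3, but 5 with equal library totals and 1 to 4 without single libraries; in al24567 minus Col-0 it was 2 throughout. Counts over all genes stayed within 1.5 times those reported. Replicate numbers were shared across genotypes, and same-number libraries were only weakly alike, though 7 of 9 libraries correlated best with their own number. With the replicate block, in ring1a1b minus al24567, ABF3 was called (0.23, adjusted p = 0.0443) and AREB3 was not (0.25, adjusted p = 0.051); no other member call changed. Among listed genes described above, the block called AHG1 lower in al24567 (-1.28, adjusted p = 0.0496) and BZIP53 lower in ring1a1b (-0.23, adjusted p = 0.0364), and AFP4 was not called in ring1a1b (0.61, adjusted p = 0.0518), where the AFP count was 2 in place of 3. AREB3 was also not called with only the 2 genotypes compared (adjusted p = 0.0669), nor EEL without a filter (adjusted p = 0.0548).

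In al24567 minus Col-0, GBF4 was -0.03 with equal totals and -0.12 to 0.12 without single libraries (negative without Col-0 replicate 2 at -0.12, al24567 replicate 1 at -0.05 or 3 at -0.03). EEL was -0.15 to 0.31 (-0.15 without Col-0 replicate 3, -0.12 without al24567 replicate 2), ABF2 -0.03 to 0.13 and ABF3 -0.11 to 0.04, the last pair turning without Col-0 replicate 2. In ring1a1b minus Col-0, ABF2 was -0.19 to 0.01 (turning without ring1a1b replicate 2), BZIP67 -0.31 to 1.10 (-0.16 without Col-0 replicate 1, -0.31 without ring1a1b replicate 3) and GBF4 -0.11 to 0.13 (turning without Col-0 replicate 2). In ring1a1b minus al24567, GBF4 was -0.09 to 0.08 (-0.09 without al24567 replicate 2, -0.01 without ring1a1b replicate 3). The planned count tests by other tools, with 2 kinds of size factor, were not run. Depth limits BZIP67 and listed genes with few reads.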
